A study of Caenorhabditis elegans with 4 samples.

Results

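The genes described here are the core of the Notch pathway in *C. elegans* and were taken by name from the deposited table. They are the receptors *lin-12* and *glp-1*, the DSL ligands *lag-2* and *apx-1*, the presenilins *sel-12* and *hop-1*, which are alternative catalytic subunits of gamma-secretase, the DNA-binding factor *lag-1*, of the CSL family, and its co-activator *sel-8*, which has the role that Mastermind has in flies. All 8 were found among the 19913 genes of the table, and all 8 passed the filter on low counts, which left 15101 genes for testing.

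Notch signaling passes a message between touching cells. A ligand of the DSL family on one cell binds a receptor on its neighbour, the receptor is cut first outside the membrane by an ADAM metalloprotease and then within it by gamma-secretase, and the freed intracellular part enters the nucleus, where it forms a complex that activates target genes. In *C. elegans* the pathway is known for the choice between anchor cell and ventral uterine fate, for secondary vulval fates, for blastomere fates in the embryo and for keeping germline stem cells dividing.

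RNA of whole animals was sequenced from first-stage (L1) larvae, 2 libraries from the wild-type strain N2 and 2 from the mutant *pry-1(mu38)*. Both strains were grown at 20 °C, and the larvae were synchronized by bleaching. PRY-1 is an Axin, a scaffold that restrains canonical WNT signaling, and *mu38* is a nonsense allele, so that signaling is constitutively active in the mutant; the study asked which genes respond. The animals carried the mutation in every cell and were not sorted, so that fewer cells of a type and less RNA per cell cannot be told apart.

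The deposited table gives read counts for each gene, 27741375 to 33230854 per library. Levels are given as CPM, the counts per 1000000 of a library whose size was scaled by TMM in edgeR. Differences are log2 fold changes of the mutant over N2 with their standard error (SE), tested by the quasi-likelihood method of edgeR and adjusted after Benjamini and Hochberg over all tested genes. The *pry-1* gene itself had 1926 and 2048 counts in N2 against 3812 and 3471 in the mutant; a nonsense mutation need not remove the RNA, so these counts check no label. The markers of neurons, body muscle, intestine and hypodermis that were looked up had counts, except *elt-5*, which had no row in the table. N2 replicate 2 lay farther from the other 3 libraries than these lay from each other.

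None of the 8 genes passed the test at an adjusted p of 0.05, by edgeR's quasi-likelihood test, edgeR's exact test or DESeq2 with either scaling; DESeq2 gave *hop-1* no adjusted p. The quasi-likelihood test called 1 gene of the whole table, 0.00662% of those tested; the share called was 1.93% by the exact test, 3.72% by DESeq2 and 3.83% by DESeq2 after quantile normalization. At an unadjusted p under 0.05 there were 2 of the 8 genes, both of them ligands and in opposite directions, *lag-2* lower and *apx-1* higher in the mutant; this was reached by 14.6% of all tested genes. In 6 of the 8 genes the strains did not overlap, 4 with the mutant libraries higher and 2 with them lower, where 57.0% of all tested genes did not overlap. A fitted change of 2-fold or more was reached by 1 of the 8, *lag-2*, and by 16.1% of all genes. The log2 fold change was positive in 5 of the 8 and in 48.3% of all genes, and its median was 0.20 over the 8 and -0.023 over all genes. The smallest p of an exact two-sided permutation of 2 against 2 libraries is 0.333; the p-values given here draw on the spread that edgeR shares between genes.

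**Figure D1:**
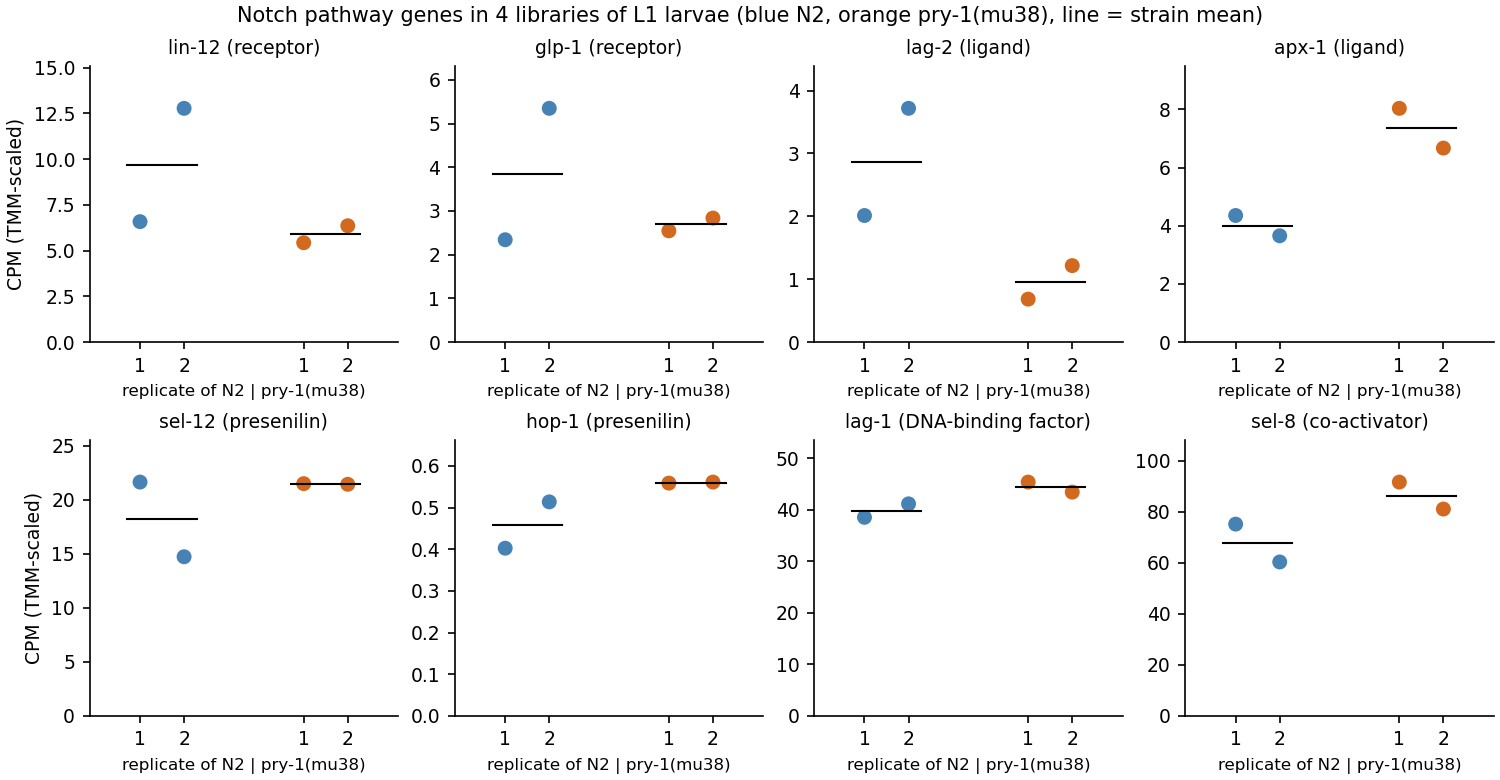
Level of each of the 8 Notch pathway genes in CPM (vertical axis, from 0, a scale of its own for each gene) in the 2 N2 libraries (blue) and the 2 *pry-1(mu38)* libraries (orange), with the strain mean as a line. The strains are separate for *lag-2*, *apx-1*, *lin-12*, *hop-1*, *lag-1* and *sel-8* and overlap for *glp-1* and *sel-12*, and the N2 points lie far apart for *lin-12*, *glp-1*, *lag-2* and *sel-12*.

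LAG-2 is the ligand that the distal tip cells present to GLP-1 on the germline stem cells, and it also signals to LIN-12. Its gene, on chromosome V, had 55 and 123 counts in N2 replicates 1 and 2 and 22 and 39 counts in mutant replicates 1 and 2. In CPM the values were 2.01 and 3.72 in N2 against 0.683 and 1.22 in the mutant. Both mutant libraries were below both N2 libraries, and within each strain replicate 2 was the higher, by 1.85-fold in N2 and 1.78-fold in the mutant. The means were 2.86 ± 1.21 and 0.950 ± 0.377 CPM (SD, n = 2 libraries each). The log2 fold change was -1.60 (SE 0.50, adjusted p = 0.337), a level 3.03-fold higher in N2. It stayed negative with each library left out in turn, from -2.05 without mutant replicate 2 to -1.09 without N2 replicate 2.

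Counting error alone is wide at these counts. The 95% exact Poisson intervals were 41.4 to 71.6 and 102 to 147 counts in N2 and 13.8 to 33.3 and 27.7 to 53.3 counts in the mutant. The interval of the lower N2 library thus overlapped that of the higher mutant library. Such intervals cover counting error only.

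APX-1 is the other ligand of the set, known as the signal from the P2 blastomere to its neighbour in the early embryo. The gene, also on chromosome V, had 4.35 and 3.66 CPM in N2 against 8.04 and 6.67 in the mutant. Here the order was the reverse of that of *lag-2*: both mutant libraries were above both N2 libraries, and replicate 2 was the lower in each strain, by 1.19-fold in N2 and 1.20-fold in the mutant. The means were 4.01 ± 0.494 and 7.36 ± 0.967 CPM (SD, n = 2), with a fitted log2 difference of 0.88 (SE 0.27, adjusted p = 0.337), a 1.84-fold higher level in the mutant. With each library left out in turn the value stayed from 0.75 to 1.04, the narrower range of the ligands.

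Because *lag-2* and *apx-1* were counted in the same libraries, their ratio does not depend on how the libraries were scaled. Of the counts on both ligands together, *lag-2* took 31.6% (95% exact binomial interval 24.8 to 39.1) in N2 replicate 1 and 50.4% (44.0 to 56.9) in N2 replicate 2. In *pry-1(mu38)* it took 7.83% (4.97 to 11.6) in replicate 1 and 15.4% (11.2 to 20.5) in replicate 2. No interval of a mutant library reached that of an N2 library. The mean log2 ratio of *lag-2* to *apx-1* counts was -0.54 ± 0.80 in N2 and -3.01 ± 0.78 in the mutant (SD, n = 2), and the difference of -2.46 corresponds to a 5.51-fold change of the ratio. The exact two-sided permutation test gave p = 0.333, the smallest this design allows. Per kilobase of exon, *lag-2* was at 0.858 and 1.89 times the level of *apx-1* in N2 and at 0.158 and 0.338 times in the mutant. The ratio was chosen after the values of both genes were seen, and their opposite directions fix its direction.

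**Figure D2:**
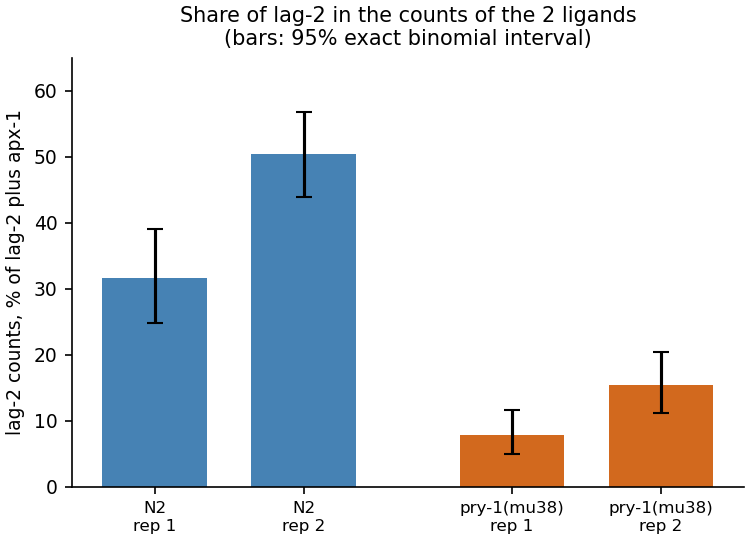
Counts of *lag-2* as a percentage of the counts on *lag-2* plus *apx-1* (vertical axis, from 0) in each of the 4 libraries, with 95% exact binomial intervals, which cover counting error only. The N2 libraries stand at 31.6% and 50.4% and the *pry-1(mu38)* libraries at 7.83% and 15.4%.

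Some markers of other cells had the same order of libraries as *lag-2*, and others did not. Of 8 pharynx genes looked up, most of them of the pharyngeal glands and muscle, 7 had a row in the table. Their summed level was 414 and 1254 CPM in N2 against 129 and 266 CPM in the mutant, in the library order of *lag-2*. In 5 of the 7 the strains did not overlap, where 57.0% of all tested genes did not. The 8 neuron markers did not overlap either, 3 with the mutant libraries higher and 5 with them lower. The share of all genes with the library order of *lag-2* was not computed. Of 6 genes looked up for the somatic gonad, where distal tip cells arise, 3 passed the filter. Among these *lim-7*, a gonadal sheath gene also active elsewhere, had 13.3 and 40.2 CPM in N2 against 5.62 and 10.6 CPM in the mutant, again in that order, whereas *ckb-3* had 1.21 and 0.937 CPM against 1.43 and 1.09. The third, *tra-1*, is the master regulator of somatic sex and no marker of the gonad alone. It had 87.6 and 88.0 CPM in N2 against 120.4 and 108.1 CPM in the mutant. The list median was 0.24, with 2 of the 3 values positive, that of *tra-1* among them. The 6 genes summed to 102 and 130 CPM in N2 against 128 and 120 CPM in the mutant, most of it from *tra-1*, so the sum is no measure of the gonad. Below the filter, *ehn-3* had 7 and 24 counts in N2 against 2 and 5 in the mutant, in the library order of *lag-2*. The gene *hnd-1* had 0 and 6 against 1 and 2, and the distal tip gene *hlh-12* had at most 0.124 CPM. Neither of these had that order. The part of these cells in the level of *lag-2* was not tested.

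LIN-12 is the receptor of the anchor cell decision and of vulval precursor cells. The gene, on chromosome III, had 180 and 423 counts in N2 against 175 and 204 counts in the mutant, or 6.59 and 12.8 CPM against 5.43 and 6.36. N2 replicate 2 stood alone, and the other 3 libraries lay close to each other, with N2 replicate 1 just above both mutant libraries. The means were 9.68 ± 4.38 and 5.90 ± 0.657 CPM (SD, n = 2). Its log2 fold change was -0.72 (SE 0.39, adjusted p = 0.381). Leaving out N2 replicate 2 brought it to -0.16. Leaving out N2 replicate 1 brought it to -1.08, where N2 rests on replicate 2 alone and that library is assumed to vary like the mutant pair.

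GLP-1, the receptor that keeps germline stem cells dividing, shares much of its structure with LIN-12. Its gene, also on chromosome III, had 64 and 177 counts in N2 against 82 and 91 counts in the mutant, or 2.34 and 5.35 CPM against 2.55 and 2.84. Both mutant libraries fell between the N2 libraries, so the strains overlapped. The means were 3.85 ± 2.13 and 2.69 ± 0.206 CPM (SD, n = 2), and the log2 fold change of -0.52 (SE 0.47, adjusted p = 0.546) became 0.19 when N2 replicate 2 was left out, and -0.96 when N2 replicate 1 was.

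The N2 libraries thus lay far apart for both receptors. *lin-12* differed by 1.94-fold between them, a distance reached by 20.9% of all tested genes, and *glp-1* by 2.28-fold, reached by 14.8%. Between the *pry-1(mu38)* libraries they differed by 1.17-fold and 1.11-fold. The ratio of *lin-12* to *glp-1* counts varied less than either gene, at 2.81 and 2.39 in N2 against 2.13 and 2.24 in the mutant. The difference in the log2 ratio between the strains was -0.25 (exact two-sided permutation p = 0.333). The share of *lin-12* in the counts on both receptors ran from 68.1% to 73.8%, and the 95% exact binomial intervals of all 4 libraries overlapped.

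The receptor *glp-1* is active in germ cells. Of 13 germ cell genes looked up, 12 had a row in the table and 11 were tested. Of those tested, 5 had a positive and 6 a negative log2 fold change. The 12 summed to 166 and 145 CPM in N2 against 199 and 183 CPM in the mutant, lowest in N2 replicate 2. The largest part was *mes-3*, at 90.1 and 65.5 CPM in N2 against 109 and 96.4 CPM in the mutant. The P granule helicase *glh-1* had 8.78 and 17.8 CPM in N2 against 7.48 and 8.17 CPM in the mutant, also highest in N2 replicate 2. So were *pgl-1*, *glh-2*, *glh-4*, *nos-1*, *nos-2*, *deps-1* and *wago-1*, whereas *pgl-3* was not. The sum thus did not follow most of its genes, and *mes-2*, like *mes-3*, was lowest in N2 replicate 2. The histone methyltransferase *mes-4* was lowest there, at 15.7 CPM, against 23.6 CPM in N2 replicate 1 and 32.6 and 30.1 CPM in the mutant. Body muscle markers, 8 genes of the contractile apparatus and its control, summed to 16014 and 28432 CPM in N2 against 16090 and 16013 CPM in the mutant, so that N2 replicate 2 stood apart there as it did for both receptors. The part of germ cell or muscle content in the receptor levels was not tested.

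The presenilins differed from each other more than they differed between the strains. SEL-12 is the main presenilin of somatic cells, and its gene, on chromosome X, had 591 and 487 counts in N2 against 692 and 687 counts in the mutant. In CPM the values were 21.6 and 14.7 against 21.5 and 21.4. N2 replicate 2 was low, and N2 replicate 1 and both mutant libraries were nearly level. For *sel-12* the log2 fold change was 0.24 (SE 0.25, adjusted p = 0.601 in the quasi-likelihood test). Leaving out N2 replicate 2 gave -0.017, and leaving out N2 replicate 1 gave 0.57. The summed level of 11 molting cycle genes was likewise lowest in N2 replicate 2, at 682 CPM, against 1044 CPM in N2 replicate 1 and 1128 and 1212 CPM in the mutant; its part in the level of *sel-12* was not tested.

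HOP-1 acts in part redundantly with SEL-12. Its gene, on chromosome I, had 11 and 17 counts in N2 and 18 in each *pry-1(mu38)* library, from 0.403 to 0.561 CPM. The 95% exact Poisson intervals ran from 5.49 to 19.7 counts in N2 replicate 1 to 10.7 to 28.4 counts in the mutant libraries, and all 4 overlapped, so no difference was detectable at this depth. The fitted value was 0.28 (SE 0.42, adjusted p = 0.718), from 0.15 without N2 replicate 1 to 0.47 without N2 replicate 2. Of the counts on both presenilins, *sel-12* took from 96.6% to 98.2% in the 4 libraries, and per kilobase of exon its level was from 22.5 to 42.1 times that of *hop-1*.

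The nuclear partners had the highest CPM of the 8 genes. LAG-1 binds the DNA of target genes and turns from repressor to activator when the receptor's intracellular part joins it. Its gene, on chromosome IV, had 1054 and 1363 counts in N2 against 1463 and 1394 in the mutant, or 38.6 and 41.2 CPM against 45.4 and 43.5. The mutant libraries were both above the N2 libraries, by a small margin. The log2 fold change of 0.16 (SE 0.16, adjusted p = 0.591) remained between 0.14 and 0.21 whichever library was left out.

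SEL-8 bridges the receptor's intracellular part and LAG-1. Its gene, on chromosome III, had 2054 and 1996 counts in N2 against 2952 and 2600 in the mutant, or 75.2 and 60.3 CPM against 91.6 and 81.1. The strains did not overlap here either. The fitted difference was 0.35 (SE 0.19, adjusted p = 0.376), from 0.19 without N2 replicate 2 to 0.55 without N2 replicate 1.

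**Figure D3:**
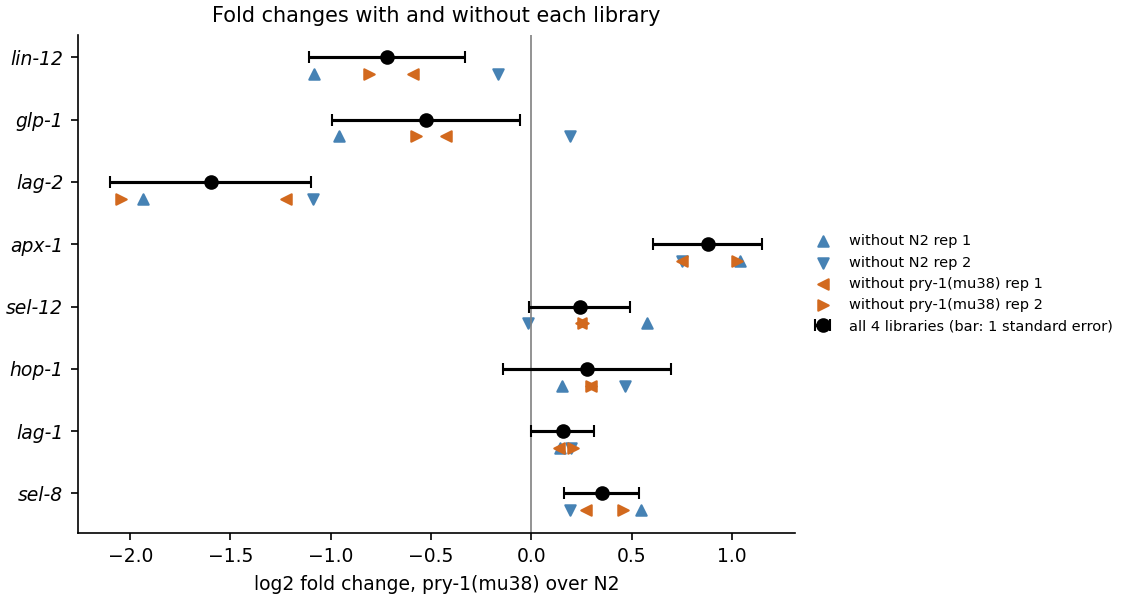
Log2 fold change of *pry-1(mu38)* over N2 (horizontal axis) for the 8 genes, with all 4 libraries (black, bar of 1 standard error) and with each library left out in turn (triangles). *lag-2* stays from -2.05 to -1.09 and *apx-1* from 0.75 to 1.04, whereas *glp-1* and *sel-12* cross 0 without N2 replicate 2.

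To compare genes with each other, CPM was divided by the length of the merged exons in the annotation of build WBcel235, which ran from 1155 bases for *hop-1* to 4695 for *lag-1*. In N2 the order of the mean levels, in CPM per kilobase, was *sel-8* at 36.7, *sel-12* at 12.3, *lag-1* at 8.49, *lin-12* at 2.13, *lag-2* at 1.92, *apx-1* at 1.45, *glp-1* at 0.889 and *hop-1* at 0.397. The neighbours *lin-12* and *lag-2*, and *lag-2* and *apx-1*, overlapped in their libraries, while the other neighbours were separate.

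In *pry-1(mu38)* the order differed in the place of *apx-1*, which stood at 2.66 CPM per kilobase, above *lin-12* at 1.29, *lag-2* at 0.637 and *glp-1* at 0.622. Only *lag-2* and *glp-1* overlapped there. The level of *sel-8* was 46.8, that of *sel-12* 14.6, that of *lag-1* 9.47 and that of *hop-1* 0.485. In N2, *sel-8* was above 78.3% of the 14094 tested genes with a length, *sel-12* above 52.2% and *lag-1* above 43.3%, whereas the ligands and receptors were above 11.8% to 21.7% and *hop-1* above 4.24%. Signal-sending and receiving genes were thus in the lower part of the range, and the nuclear factors near its middle or above it.

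**Figure D4:**
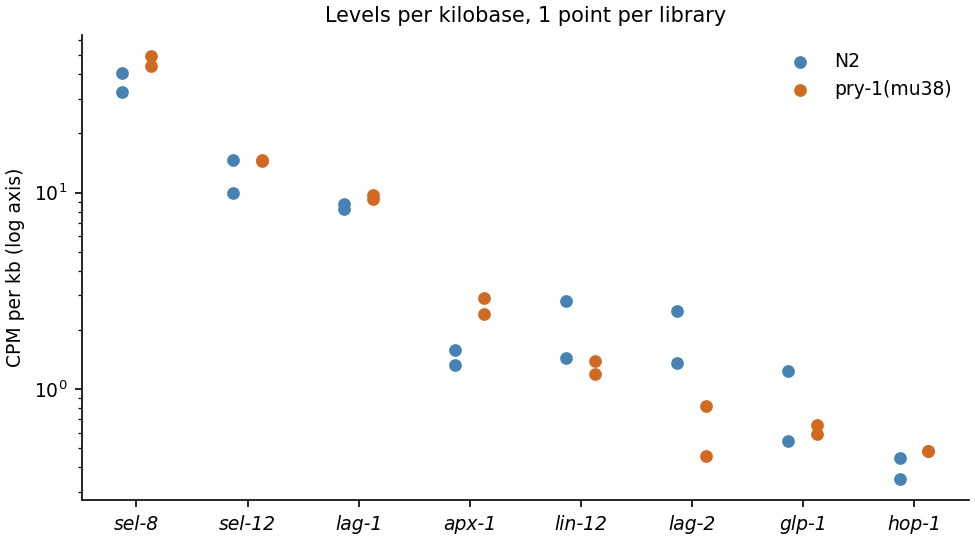
Level of each gene in CPM per kilobase of exon (vertical axis, log scale) in the N2 (blue) and *pry-1(mu38)* (orange) libraries, 1 point per library. The genes are ordered by their mean over the 4 libraries, from *sel-8* at 41.7 to *hop-1* at 0.441.

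The profiles of the 8 genes over the 4 libraries were compared by the Euclidean distance between their log2 CPM values, each centred on its own mean. The closest pairs were *sel-12* and *sel-8*, at a distance of 0.227, *hop-1* and *lag-1*, at 0.229, and *lin-12* and *glp-1*, at 0.300. Among 8608 tested genes with a mean of at least 10 CPM, those most like *lin-12* were *W05H12.1*, *Y53F4B.12* and *unc-17*, which codes for the vesicular acetylcholine transporter, at distances from 0.0310 to 0.0401. Those most like *glp-1* were *glt-5*, of the glutamate transporter family, *C55C3.1* and *F55D12.2*, at 0.0653 to 0.0822. The level of *unc-17* was 93.5 and 176 CPM in N2 against 74.7 and 87.2 in the mutant, and that of *glt-5* 19.1 and 45.9 CPM against 20.9 and 24.0. With 4 libraries such distances describe these libraries, and N2 replicate 2 is the highest point of *lin-12*, *glp-1* and the 6 genes named as most like them.

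Beyond the 8 genes, 7 lists of other pathway genes were looked up. None of their genes passed the quasi-likelihood test of strain alone. The DOS co-ligands, secreted or membrane proteins that act together with DSL ligands, were the list with the lowest median, -1.01 over 5 tested genes against -0.023 over all genes, and all 5 values were negative. OSM-11, a secreted co-ligand also known from osmotic stress responses, had the most counts of the list. Its gene had 539 and 562 CPM in N2 against 242 and 307 CPM in the mutant, without overlap. The log2 fold change was -1.01 (SE 0.19, adjusted p = 0.337 in the quasi-likelihood test), DESeq2 called it with an adjusted p of 0.00695, where it called 3.72% of genes, and leaving out any 1 library gave -1.17 to -0.83.

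The related *osm-7* had 39.8 and 106 CPM in N2 against 29.6 and 36.5 CPM in the mutant, fitted at -1.14 on the log2 scale (SE 0.48, adjusted p = 0.337), which was -0.28 without N2 replicate 2. Leaving out that library moved the median of the co-ligands to -0.13, while leaving out N2 replicate 1 gave -1.01. The N2 libraries were thus close to each other for *osm-11* and far apart for *osm-7*. The co-ligand *dos-2* was fitted at -0.073 (SE 0.47) and *dos-3* at -0.42 (SE 0.55). They became 0.34 and 0.23 without N2 replicate 2, and -0.34 and -0.80 without N2 replicate 1.

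Of 8 other DSL ligands, 4 passed the filter, with values from -0.97 to 0.41 and a median of -0.30. The named member *dsl-4* had 12 and 19 counts in N2 against 10 and 13 in the mutant, fitted at -0.51 on the log2 scale (SE 0.46, adjusted p = 0.550). It became -0.30 when N2 replicate 2 was left out, -0.31 when mutant replicate 1 was, and -0.21 after quantile normalization. Leaving out N2 replicate 2 moved the list median to 0.061, and leaving out N2 replicate 1 to -0.58.

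The list of receptor-cleaving proteins held the ADAM proteases *sup-17* and *adm-4*, tetraspanins and the other gamma-secretase subunits. Of its 8 genes 7 had positive values, with a median of 0.22 that was 0.10 when N2 replicate 2 was left out and 0.47 when N2 replicate 1 was, none with an unadjusted p under 0.05. In *adm-4* the level was 16.2 and 11.4 CPM in N2 against 19.4 and 17.3 CPM in the mutant, fitted at 0.41 on the log2 scale (SE 0.25, adjusted p = 0.418) and at 0.17 when N2 replicate 2 was left out and 0.72 when N2 replicate 1 was. The nicastrin gene *aph-2* was at 41.3 and 30.1 CPM against 43.5 and 42.3, at 0.27 (SE 0.21, adjusted p = 0.508) and at 0.049 and 0.55 in the same order. Over the 4 libraries, the subunit genes *aph-1*, *aph-2* and *pen-2* had means of 19.9, 16.5 and 6.12 CPM per kilobase, all far above *hop-1*. The means of *aph-1* and *aph-2* were above that of *sel-12*. In N2 the libraries of both overlapped with those of *sel-12*, and in the mutant they did not. The presenilin-like sperm gene *spe-4* had 1 and 17 counts in N2 against 24 and 20 in the mutant, and its value of 1.22 (SE 0.83) became 0.44 when N2 replicate 1 was left out, and 4.08 when N2 replicate 2 was, where N2 rests on 1 count.

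Among the modulators of receptor turnover, trafficking and secretion, 10 genes were tested, 6 positive and 4 negative, with a median of 0.060. The median turned negative, to -0.034, when N2 replicate 2 was left out, and became 0.15 when N2 replicate 1 was. The ubiquitin ligase subunit *sel-10*, which promotes the turnover of the receptors' intracellular part, was fitted at -0.036 on the log2 scale (SE 0.17). The exception in size was *sel-7*, a nuclear positive regulator of LIN-12 activity, with 5.89 and 19.6 CPM in N2 against 2.33 and 4.74 CPM in the mutant, at -1.85 (SE 0.69, adjusted p = 0.337); it was -0.74 without N2 replicate 2. The kinase gene *wts-1* was at -0.24 (SE 0.20), which became -0.017 when N2 replicate 1 was left out and -0.41 when N2 replicate 2 was. The value of *sel-1* was 0.23 (SE 0.19), and it became 0.46 and 0.042 in the same order.

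The suppressors of presenilin, found as mutations that relieve the need for *sel-12*, with *spr-3* and *spr-4* known to repress *hop-1*, were all positive, 5 of 5, with a median of 0.27, which became 0.14 when N2 replicate 2 was left out and 0.44 when N2 replicate 1 was. The level of *spr-4*, a zinc finger protein, was 108 and 79.8 CPM in N2 against 148 and 129 CPM in the mutant, at 0.56 (SE 0.21, adjusted p = 0.337), and it was 0.36 without N2 replicate 2. The value of *spr-3* was 0.58 (SE 0.33), which became 0.34 when N2 replicate 1 was left out and 0.91 when N2 replicate 2 was. For *spr-1* it was 0.27 (SE 0.19), and 0.44 and 0.14 in the same order. Near 0 were *spr-2*, at 0.096 (SE 0.33), and *spr-5*, at 0.020 (SE 0.15). They became 0.66 and 0.080 without N2 replicate 1, and turned negative, to -0.30 and -0.013, without N2 replicate 2.

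Genes listed as targets or partners of the receptors had values of both signs. Of the REF-1 family, direct targets in the embryo, 1 of 6 passed the filter and 2 had no count in any library; reads that align at several places were not counted, so that near-identical members can be undercounted. The tested gene, *ref-1*, had 4.06 and 1.66 CPM in N2 against 5.31 and 5.27 CPM in the mutant, fitted at 0.90 on the log2 scale (SE 0.47, adjusted p = 0.374), which became 0.38 when N2 replicate 2 was left out and 1.70 when N2 replicate 1 was.

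Of 14 other targets and partners, 13 were tested, 6 positive and 7 negative, with a median of -0.085. At an unadjusted p under 0.05 there were 4, 1 higher and 3 lower, where 6.10% and 8.53% of all genes stood. The nuclear receptor *nhr-67*, known to act in the anchor cell, had 5.93 and 6.13 CPM in N2 against 1.92 and 2.43 CPM in the mutant, with close replicates and no overlap. Its log2 fold change was -1.47 (SE 0.29, adjusted p = 0.337 in the quasi-likelihood test), from -1.63 to -1.29 with each library left out, and DESeq2 called it with an adjusted p of 0.0131.

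The germline RNA-binding proteins FBF-2, in stem cells, and GLD-1, in cells that leave that state, had values of opposite sign. The level of *fbf-2* was 4.35 and 10.5 CPM in N2 against 2.30 and 2.53 CPM in the mutant, at -1.63 (SE 0.50, adjusted p = 0.337), and -0.86 without N2 replicate 2. The level of *gld-1* was 1.02 and 2.15 CPM in N2 against 2.64 and 3.52 CPM in the mutant, at 0.94 (SE 0.45, adjusted p = 0.354), from 0.55 without N2 replicate 1 to 1.58 without N2 replicate 2. Reads on *fbf-2* may be undercounted, because its near-identical paralog *fbf-1* shares sequence with it.

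**Figure D5:**
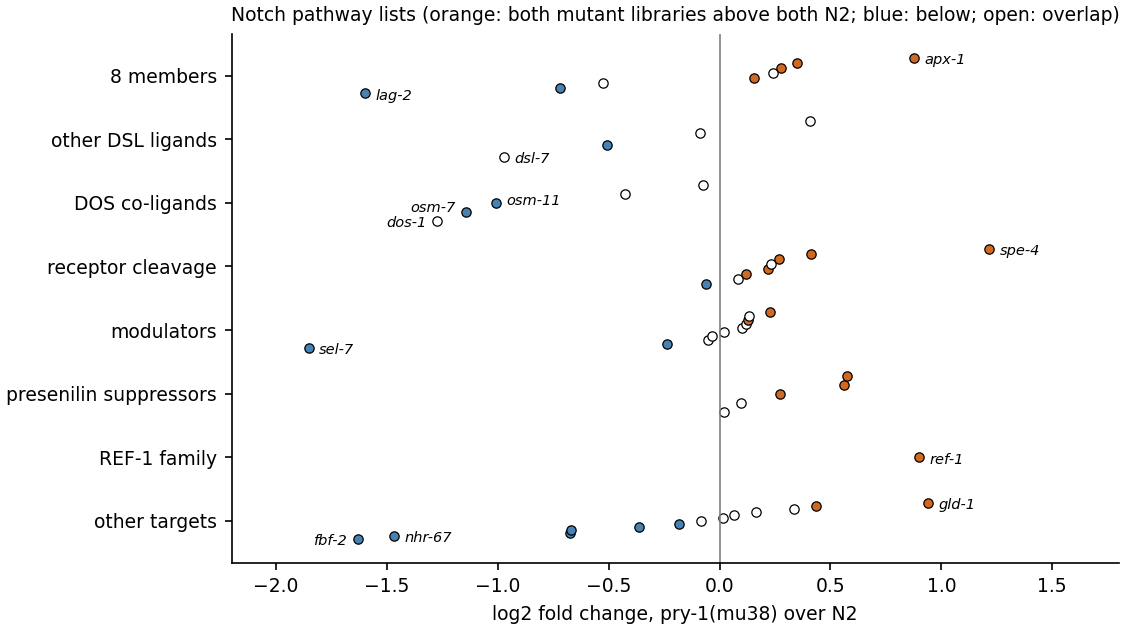
Log2 fold change of *pry-1(mu38)* over N2 (horizontal axis) for the tested genes of the 8 members and of 7 other pathway lists, 1 point per gene. Orange marks genes with both mutant libraries above both N2 libraries, blue those with both below, open points those that overlap. The co-ligands all lie below 0 and the suppressors of presenilin all above it, with some of both lists near 0.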

How the data were processed

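The authors deposited a table of read counts per gene, whole numbers without normalization, for 4 libraries. The study's methods name trimming with cutadapt, mapping with Bowtie to build ce6, eXpress, quantile normalization and DESeq, and the series text names BWA; the counter, the annotation and the strand setting are not given in the sources used here. The kit does not mark strand. Exons of *glp-1* and *hop-1* share 18 bases each with a gene on the other strand, and those of *lag-1* share 9 with a gene of the table. Summary lines of reads outside genes (5.32% to 6.75%), on several genes or at several places were left out.

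Genes were kept by filterByExpr (minimum count 10) and tested with edgeR 4.0.16 in R 4.3.3 (TMM factors 0.985 to 1.02, threshold 0.05). The standard error is the log2 fold change divided by the root of the test's F. DESeq2 1.42.0, edgeR's exact test, other scalings and filters, a replicate block and each library left out were alternatives. The scripts were tested on simulated data. Lengths and chromosomes come from the annotation of WBcel235; since the counts rest on another build, no coordinates are printed, and no sequences were used here. The labels' replicates are biological per the study's methods.

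The 8 members and the lists were chosen with earlier results of these data known. Named from the other lists are genes called by the quasi-likelihood test or DESeq2 and, in each list, up to 3 with the largest change of those that average 10 counts or more without overlap between strains; other genes were named after their values were seen. Figures were drawn with matplotlib 3.10.9.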

Additional observations from a re-analysis of the deposited data

How the results depend on the processing

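Among all genes tested, 1 was called by the quasi-likelihood test, 486 by DESeq2, 511 by DESeq2 after quantile normalization, 292 by edgeR's exact test and 0 without a filter on low counts, where 2360 had an unadjusted p under 0.05. With a library left out the count ran from 52 to 4595. Of the 8 members, 0 were called in the quasi-likelihood test, DESeq2, the exact test and with the other scalings and filters, and 0 to 2 with a library left out; the 2 were *lin-12* and *sel-12*, without N2 replicate 1, where 4595 of 15886 genes were called. With a replicate block the members called were 1, *lag-2* (adjusted p = 0.00588 in the quasi-likelihood test), against 2427 genes, or 16.1%, over the table. Of the other pathway genes the block called 7, all lower in the mutant: *osm-11*, *osm-7*, *dos-1*, *sel-7*, *fbf-2*, *nhr-67* and *egl-43*. These were 3 of 5 tested co-ligands, 1 of 10 modulators and 3 of 13 other targets and partners. Of the other DSL ligands, receptor-cleaving proteins, presenilin suppressors and REF-1 family it called 0 of 4, 8, 5 and 1. Over the whole table the block called 1734 genes lower and 693 higher. The samples share only a replicate number: the deviations of the replicate 1 libraries from their strain means correlated at 0.533 over genes, a hint from the data and not from the design. Leaving out N2 replicate 2 reversed *glp-1* (from -0.52 to 0.19) and *sel-12* (from 0.24 to -0.017). Without N2 replicate 1 they were -0.96 and 0.57. The cause was not tested. No other member changed sign under any alternative. The depth limits *hop-1*, with 11 to 18 counts per library.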

Other observations

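Several pathway genes that did not pass the filter on low counts had most of their counts in N2 replicate 2. The DSL ligand gene *dsl-2* had 8 and 39 counts in N2 replicates 1 and 2 and 1 and 4 in *pry-1(mu38)*, and *dsl-3* had 8 and 48 against 2 and 4. The ligand gene *dsl-6* had 3 and 27 counts against 6 and 3, and the germline RNA-binding gene *fbf-1* 5 and 24 against 4 and 7. These genes were chosen after their values were seen and were not tested in the main fit. The fit without a filter on low counts tested them and called none. The co-ligand *dos-1* and the ligand *dsl-7*, which were tested and overlapped between the strains, had 153 and 142 counts in N2 replicate 1 and 635 and 503 in N2 replicate 2. Their log2 fold changes of -1.28 and -0.97 were -0.13 and -0.00087 without N2 replicate 2.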
